A study of Mus musculus with 2 samples.

Results

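The transcripts described here are those typed nonsense_mediated_decay (NMD) in a deposited transcript table of mouse fibro/adipogenic progenitors (FAPs), with 1 FPKM or more in at least 1 of 2 libraries. FPKM scales sequenced fragments to transcript length and library size, so it is a level per length. Members were selected on the FPKM values of both libraries, the same values that are compared below. The rule kept 983 of 4787 NMD transcripts, out of 88702 listed transcripts of all types. They belong to 857 genes, of which 749 had 1 member and 108 had 2 or more. FAPs are the mesenchymal stromal cells of skeletal muscle. Both groups were wild-type primary FAPs sorted from mouse muscle and grown in DMEM with 20% fetal bovine serum and antibiotics, and the sources used here give neither the age nor the number of the animals. One group received 1 µM mouse recombinant Musclin, a secreted muscle peptide, for 24 h and the other an equal amount of vehicle for the same time. There was 1 library per group, so no difference below has a replicate check and no test was run. The second FPKM column carries the code BSA, which no label explains. It was taken as the vehicle library because the series has 1 other group, and every direction below rests on that.

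Nonsense-mediated decay is the surveillance pathway that degrades messenger RNAs whose reading frame ends too early. A stop codon that lies well upstream of an exon junction is recognised through the exon junction complex left there by splicing, and the helicase Upf1 with its Smg and Upf partners triggers decay. Many RNA-binding proteins use the pathway on their own transcripts, by splicing in a poison exon that carries a stop or by skipping an exon so that the frame shifts. An annotated NMD transcript is a prediction from that stop position, and its level in a library is what transcription, splicing and decay leave.

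Reading frames are shown for the members on which the results turn, because the early stop is what puts a transcript in this class. They come from the GENCODE vM21 transcripts on the GRCm38 assembly. Each runs 5′ to 3′ on the transcript strand from 15 bases before the frame leaves that of the gene's leading coding transcript to the stop, which is in capitals. For some genes the coding transcript is shown over the same point, with 15 bases on each side. The first set holds regulators and components of splicing. Rbm3 lies on the minus strand at chrX:8142472-8145696 and adds a 271-base exon at chrX:8144175-8144445, and Srsf3 lies on the plus strand at chr17:29032632-29042897 and adds a 456-base exon at chr17:29039454-29039909. Of the others, Ptbp1 at chr10:79854652-79863424 is on the plus strand. On the minus strand are Srsf7 at chr17:80200830-80207307, Tra2b at chr16:22246462-22265926, Rbm39 at chr2:156147940-156180176, Snrpb at chr2:130171787-130179403 and Clk1 at chr1:58412000-58424066.
Rbm3 ENSMUST00000129947: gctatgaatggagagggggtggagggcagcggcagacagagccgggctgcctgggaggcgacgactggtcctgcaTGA
Rbm3 coding ENSMUST00000115616: gctatgaatggagagtccctggatgggcgc
Srsf3 ENSMUST00000037776: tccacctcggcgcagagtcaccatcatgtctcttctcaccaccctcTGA
Srsf3 coding ENSMUST00000130216: tccacctcggcgcagatccccaagaaggag
Srsf7 ENSMUST00000234503: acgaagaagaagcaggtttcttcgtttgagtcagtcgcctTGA
Tra2b ENSMUST00000162413: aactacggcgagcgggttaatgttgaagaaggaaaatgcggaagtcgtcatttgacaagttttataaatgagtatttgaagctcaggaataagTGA
Rbm39 ENSMUST00000155837: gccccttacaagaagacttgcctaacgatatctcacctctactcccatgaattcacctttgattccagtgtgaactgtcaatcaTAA
Snrpb ENSMUST00000147570: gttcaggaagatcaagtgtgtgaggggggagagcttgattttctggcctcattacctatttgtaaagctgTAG
Ptbp1 ENSMUST00000057343: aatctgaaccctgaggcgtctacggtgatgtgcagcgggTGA
Ptbp1 coding ENSMUST00000172282: aatctgaaccctgagagagtcacaccccaa
Clk1 ENSMUST00000148330: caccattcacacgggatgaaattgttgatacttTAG

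The second set holds examples among the members with wide swings between the libraries, and Ftl1 and Rpsa as the most abundant ones. Dhx15 lies on the minus strand at chr5:52150693-52190377 and Clcn7 on the plus strand at chr17:25133391-25162104. Their frames leave the coding one through a splice site moved by 8 and 4 bases, which can be followed in the pairs below. Osbpl9, on the minus strand at chr4:109061655-109202234, skips a 79-base exon at chr4:109156655-109156733. Ftl1 lies on the minus strand at chr7:45457945-45459839 and Rpsa on the plus strand at chr9:120127789-120131559. Ikbkb at chr8:22659213-22706534 and Tars at chr15:11382301-11399601 are on the minus strand.
Dhx15 ENSMUST00000200186: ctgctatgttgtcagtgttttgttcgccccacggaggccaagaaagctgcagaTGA
Dhx15 coding ENSMUST00000031061: ctgctatgttgtcagtcccacagtgttttg
Clcn7 ENSMUST00000233633: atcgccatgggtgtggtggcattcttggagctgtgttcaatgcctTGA
Clcn7 coding ENSMUST00000040729: atcgccatgggtgtggtgggtggcattctt
Osbpl9 ENSMUST00000159545: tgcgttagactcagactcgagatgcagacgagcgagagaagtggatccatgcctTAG
Osbpl9 coding ENSMUST00000030288: tgcgttagactcagaggagctgtgattggt
Ftl1 ENSMUST00000210106: ttccaggatgtgcaggctTGA
Ftl1 coding ENSMUST00000094434: ttccaggatgtgcagaagccatctcaagat
Rpsa ENSMUST00000217356: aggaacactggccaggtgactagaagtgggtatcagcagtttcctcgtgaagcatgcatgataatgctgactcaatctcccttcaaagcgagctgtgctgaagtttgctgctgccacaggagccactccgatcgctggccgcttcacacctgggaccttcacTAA
Rpsa coding ENSMUST00000035105: aggaacactggccagcgagctgtgctgaag
Ikbkb ENSMUST00000135326: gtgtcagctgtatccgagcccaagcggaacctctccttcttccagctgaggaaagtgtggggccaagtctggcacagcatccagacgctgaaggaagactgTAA
Tars ENSMUST00000228814: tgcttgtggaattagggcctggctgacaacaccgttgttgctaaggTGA

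The libraries held 6.69 Gb (Musclin) and 6.76 Gb (vehicle) of aligned sequence, as worked out from the steps of the FPKM values. The summed level of 10 FAP markers was 1327 FPKM with Musclin and 1310 with vehicle, and 8 of the 10 reached 1 FPKM, with Lum and Pi16 below it. Single markers went both ways, as in Dcn at 181 with Musclin and 64.8 with vehicle and Osr1 at 15.1 and 34.8. Of the other cell types, 5 endothelial markers summed to 3.08 and 5.44 FPKM, 7 leukocyte markers to 12.3 and 18.1 and 5 mural markers to 17.5 and 26.2. The 5 listed of 7 myogenic markers summed to 36.7 and 17.96 FPKM, of which Vcam1, also made by stromal cells, gave 33.7 and 14.4, while Myod1 and Myog stayed under 0.1. The part of other cells in the results below was not tested, and in bulk RNA fewer cells of a type and less RNA per cell cannot be told apart.

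As a class the NMD transcripts were low. The median of a member's higher value was 2.76 FPKM, against 5.96 for protein-coding transcripts at the same floor. The members nearest the floor were a 4930503L19Rik transcript at 1.00 FPKM inside it and a Cars2 transcript at 0.995 outside. Both libraries were at the floor for 560 members, the Musclin library alone for 205 and the vehicle library alone for 218. Summed over all members the level was 5470 FPKM with Musclin and 6414 with vehicle, a ratio of 0.853, which makes up 1.46% and 1.73% of all FPKM. Ftl1 alone carried much of that gap. Without it the sums were 4859 and 5300 FPKM, a ratio of 0.917.

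The most abundant member was an Rpsa transcript (Rpsa is the ribosomal protein SA of the small subunit), at 817 FPKM with Musclin and 857 with vehicle. The coding sum of Rpsa, meaning the FPKM of all its protein-coding transcripts added up, was 204 and 223, so the NMD transcript held 80.1% and 79.4% of both together. Next came Ftl1 (ferritin light chain, an iron store), at 612 and 1114 FPKM beside a coding sum of 1203 and 800. Its NMD share was 33.7% with Musclin and 58.2% with vehicle. The 2 Ftl1 quantities moved in opposite directions, and the gene as a whole was at 1832 and 1929 FPKM. Serpinf1 (the secreted factor PEDF) stood at 245 and 344 FPKM, beside coding sums of 432 and 510. Rpsa, Ftl1 and Serpinf1 together made up 30.6% and 36.1% of all member FPKM. Rpsa and Ftl1 belong to families with many processed copies in the genome, so their levels are uncertain where reads fit more than 1 copy.

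Of the further abundant members, 3 were close in both libraries. Nptn (neuroplastin, a cell adhesion protein) had 66.0 FPKM with Musclin and 65.9 with vehicle, and Rpl13a (a ribosomal protein) had 57.8 and 60.7. Ddx5 (an RNA helicase) had 61.1 and 54.6 FPKM in a transcript that keeps an intron. Wls (the carrier that brings Wnt proteins to the cell surface) was lower with Musclin, at 37.2 against 55.5 FPKM, and so was Nedd4 (a ubiquitin ligase), at 29.99 against 57.8. Atp2a2 (the calcium pump SERCA2) had 41.4 FPKM with Musclin and 88.7 with vehicle, a log2 ratio of -1.08, while its coding sum was higher, at 92.0 against 53.8. That Atp2a2 transcript ends at the same stop as the leading coding transcript and differs from it downstream.

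**Figure D1:**
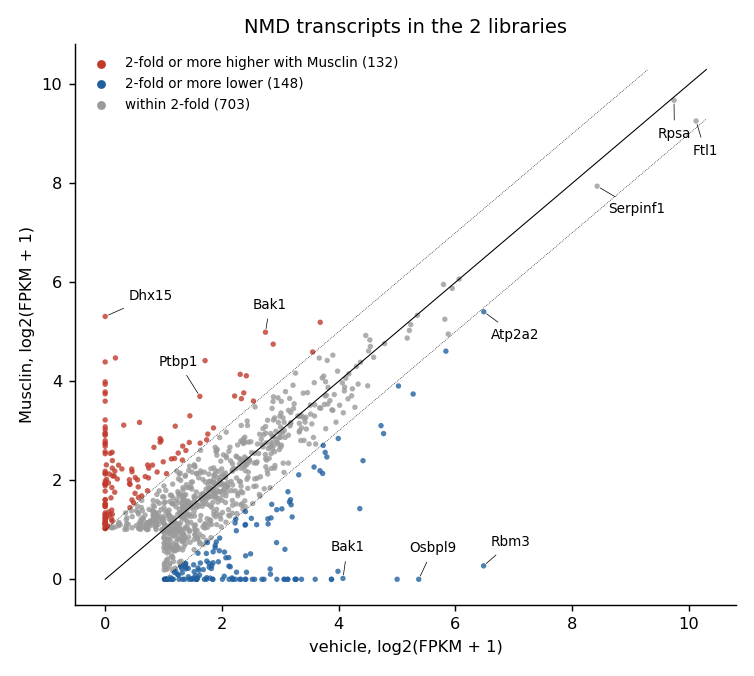
Level of each of the 983 NMD transcripts with vehicle (horizontal) and with Musclin (vertical), as log2(FPKM + 1); the solid line marks equal levels and the dotted lines a 2-fold difference on that scale. Most points, 703, lie between the dotted lines, and the rows along both axes hold the 101 transcripts listed at 0 in a library.

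Most members stayed within 2-fold. On the scale of log2(FPKM + 1), which understates differences of low transcripts, 132 members were 2-fold or more higher with Musclin (13.4%), 148 were 2-fold or more lower (15.1%) and 703 (71.5%) lay between. Of all 23162 transcripts at the floor, 6.11% were higher and 5.89% lower, and of the protein-coding ones 6.37% and 5.92%. The members had a median log2 ratio of -0.04, against -0.01 for all transcripts, and from the 5th to the 95th percentile they ran from -1.73 to 1.85, against -1.09 to 1.11. A member at the floor in 1 library only was chosen partly for its difference. The wider spread is therefore partly set by the rule. Of the 560 at the floor in both libraries, 26 were higher (4.64%) and 34 lower (6.07%), beside 3.25% and 3.08% of the 18382 transcripts of all types at the floor in both.

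A large part of the swings ended at zero. The deposited table lists 52 members at 0 with vehicle (5.29%, beside 1.46% of all transcripts and 1.48% of coding ones) and 49 at 0 with Musclin (4.98%, beside 1.31% and 1.28%). These 101 transcripts had a median of 2.80 FPKM in the other library and reached 40.4. For 63 of them the gene summed to 10 FPKM or more in both libraries, so the gene was read in the library where this transcript was listed at 0. The authors' deposited table gives all 101 a p-value of 1 and marks none of them significant. The same p-value of 1 stands for 84 of the members past 2-fold that are above 0 in both libraries, Ncstn, Snrpb and Rbm3 among them. The authors' deposited table marks 194 members as significant (19.7%, beside 12.0% of all transcripts and 12.7% of coding ones), 95 of them among the 280 past 2-fold here.

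The widest difference was in Rbm3, a cold-inducible RNA-binding protein. Its poison-exon transcript ENSMUST00000129947 had 0.207 FPKM with Musclin and 88.5 with vehicle, a log2 ratio of -6.21. Those values rest on 6.14 and 2646 fragment equivalents, and the ratio of Musclin to vehicle FPKM was 0.00234. The exact Clopper-Pearson 95% interval of the ratio, from fragment equivalents rounded to whole numbers, was 0.000840 to 0.00499. Such intervals cover counting error only, and not how reads were shared out among transcripts of the gene. They left out a ratio of 1 in all 132 members counted as higher and all 148 counted as lower. Those members were picked on the same values, so the intervals are no support for a difference. The coding sum went the other way, 273 FPKM with Musclin and 146 with vehicle, and the whole gene had 283 and 244. A second Rbm3 member, ENSMUST00000141629, which was picked out after its values were seen, adds an exon of the same 271 bases and had 1.16 and 0.884 FPKM.

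The list of heterogeneous nuclear ribonucleoproteins and other splicing regulators had members in both directions. Of its 35 members from 24 genes, 2 were 2-fold or more higher, 5 lower and 28 within, with a median log2 ratio of -0.10. Over all members 13.4% were higher and 15.1% lower. None of the 47 genes of that list passed 2-fold by its gene sum. Snrpb (a core protein of the spliceosome's small ribonucleoproteins) had 0.118 FPKM with Musclin and 14.9 with vehicle in a transcript with an added 124-base exon, beside coding sums of 56.3 and 55.0. Rbm39 (a splicing coactivator) had 6.70 and 26.3 FPKM in the transcript shown, a log2 ratio of -1.83, and its coding sums were 64.0 and 82.5. In the opposite direction Ptbp1 (the polypyrimidine tract-binding protein, which represses exons) had 12.0 FPKM with Musclin and 2.08 with vehicle in a transcript that skips 2 exons, a ratio of 5.76 with an interval of 4.56 to 7.37. Its coding sum was 34.0 and 46.9 FPKM. Clk1 (a kinase of SR proteins) likewise had 5.07 and 1.61 FPKM in a transcript that skips a 91-base exon, beside coding sums of 22.5 and 30.1.

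The SR proteins, the serine and arginine-rich activators of splicing, showed no member past 2-fold on the log2(FPKM + 1) scale among 9 members from 8 genes, beside 13.4% and 15.1% of all members, and the median log2 ratio was -0.11. That count rests on the pseudocount of 1 FPKM, since with one of 0.1 the log2 ratio was -1.07 for Srsf3 and -1.55 for Srsf6, and the authors' deposited table marks both as significant. Srsf3 had 3.47 FPKM with Musclin and 7.37 with vehicle, a log2 ratio of -0.91, and Srsf6 had 0.793 and 2.51. Srsf7 leaned the other way, with 8.58 and 6.48 FPKM. Tra2a and Tra2b (splicing activators related to the SR proteins) had 12.0 and 12.6 FPKM and 3.48 and 4.47. Tra2a held 39.2% and 42.8% of its NMD plus coding FPKM and Tra2b 10.8% and 10.9%, so these poison-exon shares were close in both libraries. Son, a large protein of nuclear speckles, had 2 members, of which 1 stood at 5.94 and 4.01 FPKM and the other at 6.07 and 6.61.

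Genes of the decay machinery were compared by RNA level, and no protein or activity was measured. All 17 NMD factors and all 9 genes of the exon junction complex were within 2-fold by gene sum, with median log2 ratios of -0.05 and 0.01. Across all 12884 genes at the floor, 1.71% were higher and 1.52% lower, so none among these 26 genes is close to the percentage over all genes. Upf1 (the central helicase) had 20.8 FPKM with Musclin and 20.9 with vehicle, Smg1 (the kinase that phosphorylates it) had 15.1 and 16.4, and Eif4a3 (the core of the exon junction complex) had 50.9 and 49.6. Pnrc2, an adaptor to decapping, differed most among the NMD factors, at 26.1 and 42.2 FPKM. None of these 26 genes had a member, and the highest NMD transcript among them reached 0.158 FPKM.

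Other RNA lists had members too. Of 15 messenger RNA decay genes, 4 held 5 members, 1 higher and 2 lower, beside 13.4% and 15.1% of all members. Dis3 (a catalytic exosome subunit) held a higher and a lower member. Its ENSMUST00000228643 had 6.74 FPKM with Musclin and was listed at 0 with vehicle, while ENSMUST00000227022 had 0.105 and 3.76. Exosc10 (another exosome nuclease) had 16.95 and 8.59 FPKM beside coding sums of 9.20 and 17.8, so its NMD share was 64.8% with Musclin and 32.6% with vehicle. Lsm14a (a P-body protein) had 0.974 and 3.75 FPKM. In the list of messenger RNA export, 1 of 3 members passed 2-fold, beside 28.5% of all members. That member was a Ddx39 transcript at 1.39 FPKM with Musclin and 8.21 with vehicle. A Thoc7 transcript at 2.02 and 0.768 FPKM was within 2-fold, but with a pseudocount of 0.1 its log2 ratio was 1.28. The authors' deposited table marks both the Ddx39 and the Thoc7 transcript as significant.

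Ribosomal protein genes had 10 members from 8 genes, of which 1 was higher, 2 were lower and 7 were within 2-fold, beside 28.5% of all members past 2-fold, and none of the 63 genes passed 2-fold by gene sum. Rps13 had 16.3 FPKM with Musclin and 4.35 with vehicle in a transcript that keeps an intron. Rpl10a had 12.4 and 37.8 FPKM, and Rpl12 had 23.4 and 56.2. Ribosomal protein genes have processed copies too, and the same uncertainty holds for them.

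In the list of the integrated stress response, the programme in which Atf4 drives amino acid genes, 31 of 48 genes were 2-fold or more lower with Musclin by gene sum and 1 was higher, beside 1.52% and 1.71% of all genes. Its 5 members came from 3 genes, 3 of them from Nars. Of the 5, 3 were higher and 2 lower, beside 13.4% and 15.1% of all members. Tars (threonyl-tRNA synthetase) had an NMD transcript at 7.66 FPKM with Musclin and 0.247 with vehicle beside coding sums of 27.3 and 57.4. Nars (asparaginyl-tRNA synthetase), with coding sums of 107 and 226 FPKM, had ENSMUST00000235647 at 11.1 and 4.82, ENSMUST00000236463 at 3.25 and 0.0945 and ENSMUST00000237369 at 1.95 and 7.92. Nupr1 (a stress-induced nuclear protein) was listed at 0 with Musclin and had 3.54 FPKM with vehicle, beside coding sums of 16.0 and 64.5. The interferon list had 22 of 30 genes higher by gene sum, beside 1.71% of all genes, and a single member, Oasl2 (an interferon-induced protein related to oligoadenylate synthetases), at 3.26 and 0.112 FPKM, with coding sums of 24.6 and 4.62.

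The members past 2-fold were set against their own genes. Of the 279 past 2-fold that have a coding transcript listed, 269 (96.4%) came from genes whose summed level stayed within 2-fold. That is about the percentage over all genes (96.8%), and 82.3% of all transcripts past 2-fold with a coding row came from such genes. For 197 (70.6%) the coding sum had a log2 ratio of the opposite sign. The median absolute log2 ratio was 1.53 for these members, 0.36 for the coding sums and 0.24 for the gene sums. NMD and coding levels of a gene are estimated from shared reads, so the opposite signs are not independent measurements. The percentage of opposite signs was not taken for other transcript types, so whether 70.6% is usual for any transcript is not known. Host coding sums passed 2-fold in 19 genes upward (2.33%) and 31 downward (3.80%) of 816, beside 1.96% and 1.80% of all genes.

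**Figure D2:**
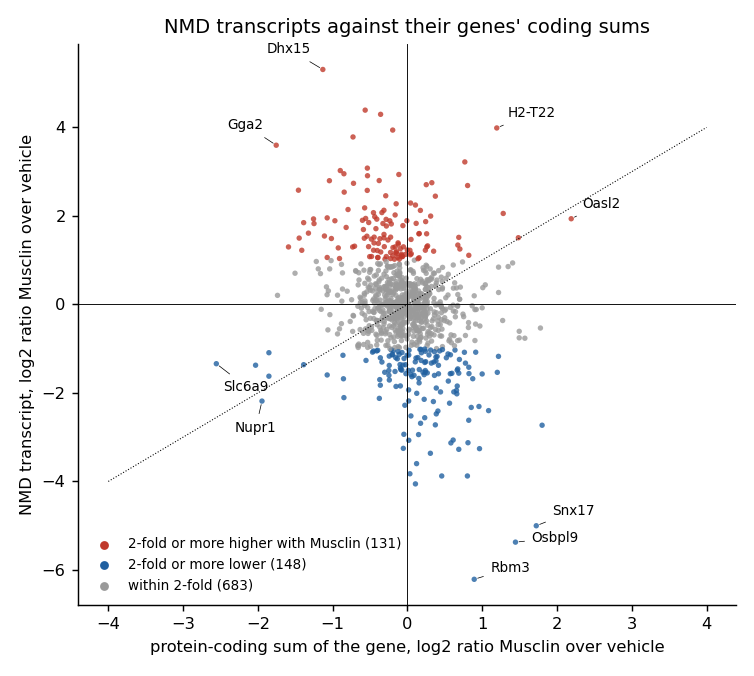
Log2 ratio of Musclin over vehicle, on FPKM + 1, for each NMD transcript (vertical) and for the protein-coding sum of its gene (horizontal); the dotted line marks equal ratios. Transcripts 2-fold higher (131 with a coding transcript) lie mainly left of the vertical axis, 99 of them, and those 2-fold lower (148) mainly to its right, 98 of them. Such counts were not taken for other transcript types.

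Each member's log2 ratio was next reduced by that of its coding sum. The difference was 1 or more in 167 of 934 members (17.9%) and -1 or less in 160 (17.1%). The same measure, taken against the gene's coding sum without the transcript itself, gave 12.3% and 12.2% over all transcripts, 13.9% and 13.8% over protein-coding transcripts and 5.31% and 4.91% over retained-intron transcripts. The NMD percentages lay above those of both other types in each direction, and nearer to the coding ones. They include members at the floor in 1 library only, which were chosen partly for their difference, so this order is partly set by the rule. Among the 560 members at the floor in both libraries, 54 were higher and 52 lower. This measure was not taken for the other types at that floor.

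In 21 members a 2-fold difference stood against a 2-fold difference of the coding sum. How often this holds for other transcript types was not counted. Dhx15 (a helicase that takes spliceosomes apart) had 38.7 FPKM with Musclin and was listed at 0 with vehicle, beside coding sums of 35.5 and 79.0 and gene sums of 80.3 and 85.8. Osbpl9 (a lipid transfer protein) was listed at 0 with Musclin and had 40.4 FPKM with vehicle, beside coding sums of 41.1 and 14.5. Snx17 (a sorting nexin of endosomes) was listed at 0 with Musclin and had 31.04 FPKM with vehicle, beside coding sums of 29.1 and 8.13. In Dhx15, Osbpl9 and Snx17 the gene sum stayed within 2-fold while the listed NMD and coding levels differed in opposite directions. Ikbkb (the kinase IKK-beta of the NF-kappaB pathway) had 7.999 and 0.503 FPKM beside coding sums of 3.01 and 10.004. Gga2 (an adaptor of vesicle transport) had 11.1 FPKM with Musclin and was listed at 0 with vehicle, in a transcript that shares its stop with the leading coding one, and its coding sums were 3.44 and 14.0.

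Other wide swings fell in genes of varied roles. Higher with Musclin was Ncstn (nicastrin, a subunit of gamma-secretase), at 21.2 FPKM against 0.129 with vehicle, in a transcript with an added 115-base exon. Tpp2 (a cytosolic peptidase) had 14.4 FPKM, Ankfy1 (an endosomal protein) 12.8, Slc2a1 (the glucose transporter GLUT1) 8.32 and Tubgcp3 (a gamma-tubulin complex protein) 7.14 with Musclin, and all 4 were listed at 0 with vehicle. The coding sums of Slc2a1 were 56.9 and 33.0, higher with Musclin, while those of the other 3 were lower. On the opposite side Mrpl3 (a mitochondrial ribosomal protein) had 13.7 FPKM with vehicle, Ssb (the La RNA chaperone) 11.1, Parl (a mitochondrial rhomboid protease) 9.295, Mindy3 (a deubiquitinase) 8.68, Ifngr1 (a chain of the interferon-gamma receptor) 8.58 and Snrpa1 (a U2 spliceosome protein) 7.73, and all 6 were listed at 0 with Musclin. Their coding sums were higher with Musclin in each case, as in Ifngr1 at 21.8 against 10.7 and Ssb at 99.999 against 91.8. Kctd3 had 0.0740 and 6.12 FPKM beside coding sums of 8.16 and 1.63.

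In 11 members the coding sum passed 2-fold in the same direction. For other transcript types this was not counted either, so neither count can be called particular to NMD transcripts. Tnfrsf23 (a decoy receptor for TRAIL) had 35.6 FPKM with Musclin and 11.9 with vehicle, beside coding sums of 12.96 and 3.99, and its NMD share was 73.3% and 74.8%. Diablo (a mitochondrial protein that promotes apoptosis) had one transcript at 2.41 and 7.76 FPKM beside 2.71 and 8.71, with shares of 47.0% and 47.1%. In ENSMUST00000154237 of Cyb5r1 (a cytochrome b5 reductase) 7.60 and 25.5 FPKM stood beside 20.0 and 74.7, with shares of 27.6% and 25.4%. In Tnfrsf23 and in those transcripts of Diablo and Cyb5r1 the level passed 2-fold and the shares were close. The other Diablo member, ENSMUST00000125652, is not among the 11 and went against the coding sum. It had 5.99 FPKM with Musclin and 0.943 with vehicle, with shares of 68.8% and 9.77%. Others of the 11 differed in share. A second Cyb5r1 member had shares of 0.110% and 1.55%, and Slc6a9 (a glycine transporter), with 1.86 and 6.23 FPKM, had shares of 34.8% and 19.8%. Fas (the death receptor) had 3.37 and 0.0510 FPKM beside coding sums of 7.87 and 2.65. H2-T22 (a class Ib histocompatibility protein) was listed at 0 with vehicle and had 14.9 FPKM with Musclin, beside coding sums of 40.5 and 17.1.

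Shares were compared in 957 members with NMD plus coding FPKM of 1 or more in both libraries. The median share was 17.8% with Musclin and 18.1% with vehicle, so the typical balance was alike, while single members shifted by a median of 7.79 percentage points. The share was 20 points or more higher with Musclin in 111 of the 957 members and lower in 99. A member held over 50% in 137 cases with Musclin and in 130 with vehicle, and in 76 cases in both. Shares were not taken for other transcript types, so whether such counts and shifts are usual for any transcript of a gene is not known. Ciao2b (an iron-sulfur cluster assembly protein) was at 90.6% and 91.9%, Rap1gap2 (an inactivator of the GTPase Rap1) at 91.4% and 94.7%, Mmaa (a protein of vitamin B12 metabolism) at 85.7% and 90.3% and Ccnl1 (cyclin L1, linked to splicing) at 82.6% and 77.1%. Khnyn (a partner of the antiviral factor ZAP) was at 91.7% and 87.2% and Mtg2 (a GTPase of mitochondrial ribosome assembly) at 81.2% and 79.1%. In these genes the transcript typed NMD held most of the NMD plus coding FPKM in both libraries. Parp6 had 3.84 and 4.17 FPKM in its NMD transcript while its coding sum was 0.00166 with Musclin and listed at 0 with vehicle, and Pakap had 8.01 and 6.82 FPKM beside a coding sum listed at 0 with Musclin and 2.33 with vehicle.

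**Figure D3:**
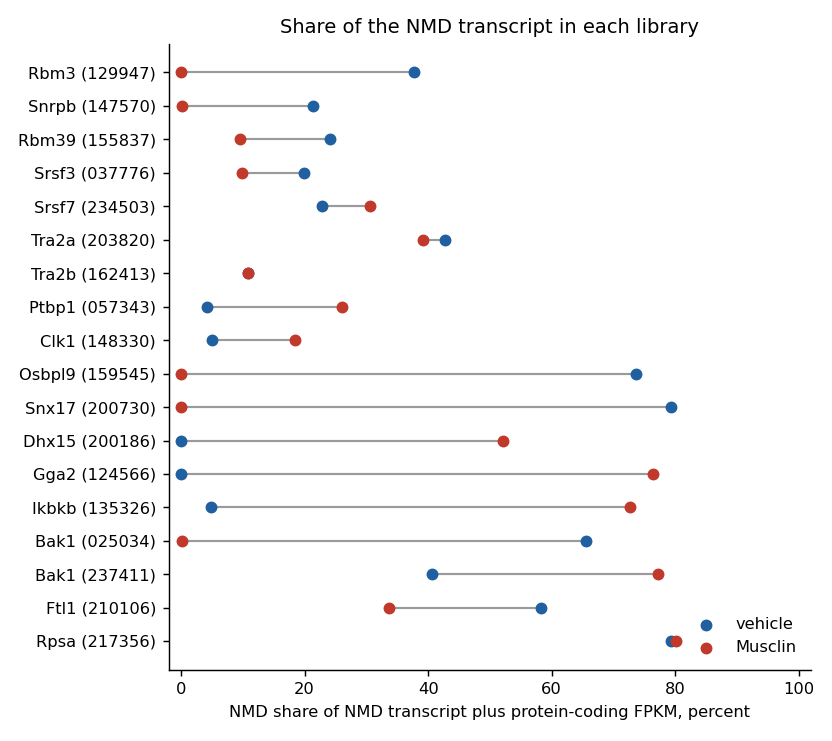
NMD share of the FPKM of the NMD transcript plus the coding sum of its gene, in percent, in the vehicle and Musclin libraries for 18 named transcripts, with the end of the Ensembl identifier in brackets. Tra2b and Rpsa show nearly the same share in both, Rbm3, Osbpl9 and Snx17 are near 0 with Musclin, and Dhx15 and Gga2 are at 0 with vehicle.

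Sister NMD transcripts of a gene could differ in opposite directions. In 10 of the 108 genes with 2 or more members, a member was 2-fold higher while another was 2-fold lower. In 9 of the 10 the members summed to within 2-fold. Opposite members offset each other in a sum, so this follows partly from how the genes were picked. The rate among sister coding transcripts was not taken. Bak1 (a pore-forming protein of apoptosis) had ENSMUST00000237411 at 30.8 FPKM with Musclin and 5.71 with vehicle, and ENSMUST00000025034 at 0.0126 and 15.8, which added to 30.8 and 21.5. Xpnpep1 (an aminopeptidase), named after its values were seen, had 4.92 and 0.0863 FPKM in one transcript, while the other was listed at 0 with Musclin and had 5.60 with vehicle. Both Xpnpep1 transcripts skip the same 89-base exon. After adding the members of a gene, 109 of the 857 genes were higher and 128 lower.

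The annotation shows how these transcripts differ from coding ones. Of the 983 members, 975 were found in GENCODE vM21 and 973 have an annotated stop. In 972 the stop lies 50 bases or more before the last exon junction, the criterion on which the type is assigned. The median distance was 547 bases, with 4 junctions after the stop. The member's frame had a median of 351 bases against 1347 in the leading coding transcript, and after leaving the coding frame it ran on for a median of 45 bases. Against the leading coding transcript, 312 of 954 members differed by changed splice sites alone, 171 by added exons alone and 170 by skipped exons alone. Where 1 exon was skipped, its length was not a multiple of 3 in 202 of 226 members, and where 1 exon was added this held in 158 of 236. These counts were not set beside the exons of other transcripts, so whether they are usual is not known.

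These kinds were set beside all members, of which 28.5% were past 2-fold, 13.4% higher and 15.1% lower. Of members that skip exons alone 39.4% were past 2-fold, of those that add exons alone 30.99%, and of those with changed splice sites alone 26.9%. By direction, 32 were higher and 35 lower among skipped exons, 22 and 31 among added exons and 42 and 42 among changed splice sites. Of 28 members that keep introns alone 4 were higher and 3 lower, together 25%. Of 21 that add an intron alone 6 were higher and 2 lower, together 38.1%. Those 21 had a median log2 ratio of 0.77 and median shares of 20.9% with Musclin and 5.30% with vehicle. Both intron kinds hold few members.

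How much of a member is its own also differed. Counting the bases that no listed coding transcript of the gene holds, the median was 79 bases over all members, 104 in those within 2-fold and 34 in those past it. No base at all was their own in 25.9% of members within 2-fold, in 41.2% of those past it and in 70 of the 101 listed at 0 (69.3%). The 101 are all counted among those past 2-fold, and give 70 of the 115 members with no own base there. The figures for members past 2-fold therefore do not describe those above 0 in both libraries. Of the 295 members with no base of their own, 36 also have no junction of their own, 8 of them past 2-fold and 3 listed at 0, and the others differ from the coding transcripts by junctions. Dhx15, Slc44a2 (a choline transporter), Clcn7 (a lysosomal chloride transporter), Tbk1 (a kinase of innate immunity) and Osbpl9 have no base of their own. Slc44a2 had 20.0 FPKM with Musclin and was listed at 0 with vehicle, Tbk1 had 7.46 and was listed at 0, and Clcn7 was listed at 0 with Musclin and had 13.7 with vehicle. Rbm3, with 271 bases of its own, Snrpb with 124 and Ikbkb with 175 do have some. The part of read assignment in these differences was not tested.

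**Figure D4:**
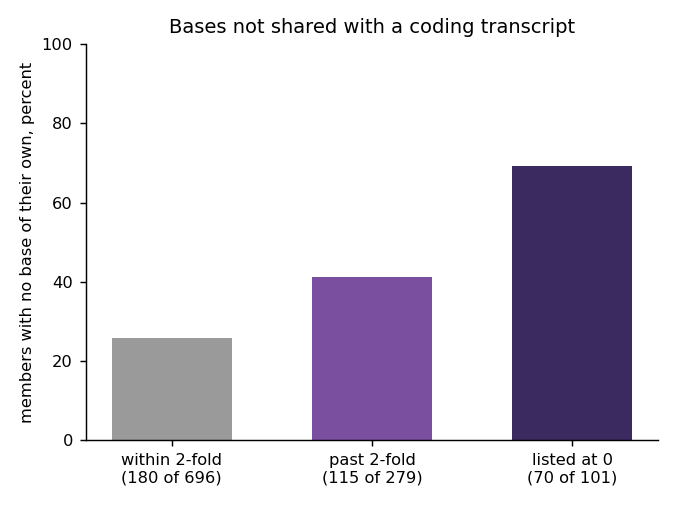
Percent of NMD transcripts with no base outside the listed coding transcripts of their gene, for those within 2-fold, those past 2-fold and those listed at 0 in a library, which are also counted among those past 2-fold. The bars stand at 25.9%, 41.2% and 69.3%.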

How the data were processed

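RNA of 2 libraries, 1 with Musclin and 1 with vehicle, was compared. Per the file headers, the deposited table gives the level of each transcript in FPKM, and the authors' fold change (a ratio), its log2 value, a p-value and a q-value. StringTie, DESeq2 and edgeR are listed, without roles, in the submitters' processing notes. For the aligner and the build: not given in the sources used here. No FPKM column was left unused (0).

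Transcripts were kept at 1 FPKM or more in either library. Log2 ratios were taken on FPKM with a pseudocount of 1 and counted at 2-fold. Coding sums add the protein_coding FPKM of a gene_id. Fragment equivalents (22456375 and 22677181 in all) were estimated from FPKM steps: in the genes used, 62.5% and 68.9% of values were whole bases within 0.1. Rounded to whole numbers, they gave exact Clopper-Pearson 95% intervals, which cover counting error only. Exon structures and sequences came from GENCODE vM21 (GRCm38). Of 88029 table transcripts found there, 87772 have the same start and end. The leading coding transcript of a gene is the one with the highest mean FPKM among its protein_coding transcripts with an annotated stop. The 2-fold rule was tried on simulated counts drawn separately for each transcript. These hold counting noise and no sharing of reads among transcripts, so they cannot test read assignment. Python 3.11.15 with pandas 2.3.3, numpy 2.4.6, scipy 1.17.1 and matplotlib 3.10.9 was used.

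The members, the 9 gene lists and the rule for named members were chosen with earlier results of these data known. Named are the 10 members with official symbols highest in mean FPKM, the 10 highest and 10 lowest in log2 ratio and in difference from the coding sum (2 FPKM or more), the 8 highest in share, and up to 4 per list. Members shown for moving with or against a coding sum, further members of the splicing lists, and the sister transcripts were chosen after their values were seen. Alternatives were other pseudocounts, floors, a scaling, other comparators and subsets of members.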

Additional observations from a re-analysis of the deposited data

How the results depend on the processing

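No paired analysis was possible because each group has 1 library. Of 76 counts recomputed under alternatives, 42 stayed within 1.5 times. Under other pseudocounts and the scaling, 378 values of named members were recomputed, both past and within 2-fold at first. Of those past 2-fold at first, 0 changed sign and 11 were no longer past it. Another 9 were newly past 2-fold. Values within 2-fold at first could change sign, as in Oasl2 against its coding sum, from -0.25 to 1.59 with a pseudocount of 0.1. Scaling moved the median gene by -0.03 on the log2 scale and no count past 1.5 times.

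Counts below are higher and lower with Musclin. Members past 2-fold numbered 28 and 32 with a pseudocount of 5 FPKM, 26 and 34 with a floor of 1 FPKM in both libraries, 45 and 51 with a floor of 5 FPKM, and 86 and 75 with support level 1 or 2. Against the coding sum the counts were 57 and 58 with a pseudocount of 5, 54 and 52 with the floor in both libraries and 58 and 56 with the floor of 5, and 87 were lower with support level 1 or 2. Share differences of 20 points or more numbered 34 and 32 with the floor in both libraries and 40 and 39 with the floor of 5. Host coding sums past 2-fold were 29 higher with a pseudocount of 0.1, 6 and 7 with one of 5, 45 and 53 with no floor, 2 and 14 with the floor in both libraries, and 6 and 15 with the floor of 5. The floors also changed how many transcripts were counted: 560 in both libraries, 277 at 5 FPKM.

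Subsets chosen after seeing the data gave 80 members higher among those above 0 in both libraries. Among members with a base of their own, 72 were higher and 92 lower, 100 and 101 against the coding sum, and 54 had a share lower by 20 points or more. The ratio of summed NMD FPKM was 0.861 with no floor and 0.917 without Ftl1. With 1 library per group, no spread between samples is known, and low members rest on few fragments.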

Other observations

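The table has a second surveillance type, non_stop_decay, for transcripts that lack a stop codon. Of 13 such transcripts 1 reached 1 FPKM, that of Zbtb38 (a zinc finger protein), at 0.830 FPKM with Musclin and 1.13 with vehicle. A Ddx24 transcript of this type had 0.663 FPKM with Musclin and was listed at 0 with vehicle.

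Of the NMD members, 21 come from genes with no protein-coding transcript in the table and entered no comparison with a coding sum. Most are predicted genes. Among named genes, Hyi had 5.22 and 6.29 FPKM and Stard9 had 2.09 and 2.14.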
